A study of Mus musculus with 46 samples.

Results

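The variation of autosomal allele ratios between animals was examined in the dorsal raphe nucleus of 14 female mice at postnatal day 15 (P15). The genes were those on an autosome with a mean of 50 or more allele-assigned reads per animal, which took in 9724 of the 15499 genes in the table. Each gene's CAST share, the percentage of its allele-assigned reads that came from the CAST allele, was compared with binomial sampling around 1 mean for each cross. The dispersion is the Pearson statistic divided by its 12 degrees of freedom, so 1 is the average value expected if the reads alone made the animals differ. Just inside the count limit lay Insc, Zfp963 and Olfr287, each with a mean of 50 reads and with dispersions of 1.13, 1.43 and 1.08. Outside it lay Prkag2os2 and Prss36, with means of 49.9 reads and dispersions of 0.99 and 0.78.

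All animals were females of first-generation crosses between the C57 and CAST strains, made in both directions and named F1i and F1r. The strain of the mother is not given for either cross. There were 7 F1i and 7 F1r animals at P15. The same groups at P5 (7 and 7 animals) and in adults (9 and 9 libraries) were used to see whether a gene that varied at P15 also varied at other ages. Adult libraries carry 2 label numbers, with 3 libraries under each of 3 first numbers in a cross, and what either number stands for is not given. The X-linked CAST share of libraries under 1 first number differed by 2.68 to 12.4 points, and whether they share an animal or a litter cannot be told from the labels. No treatment, mutation or transgene was given for any group. The labels do not say whether the animals of a cross came from 1 litter, so the p-values measure the spread between these samples only.

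An F1 hybrid carries 1 C57 and 1 CAST copy of every autosomal gene in the same nucleus, so the ratio of the alleles reports differences that act in cis, such as regulatory variants and parental imprints. Imprinted genes are transcribed mainly from the copy of 1 parent. On the X chromosome of females, 1 copy is silenced in each cell, and the mix of cells differs from animal to animal, whereas the 2 copies of most autosomal genes are transcribed together. The dorsal raphe is the main source of serotonin in the forebrain.

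The P15 libraries held between 3692778 and 8032987 allele-assigned reads, with a median of 5044115. The CAST share over all tested autosomal genes lay between 51.3% and 51.5% in the F1i animals and between 49.9% and 50.0% in the F1r animals, with a 95% Wilson interval of less than 0.1 points on either side that covers counting error only. The serotonergic markers Tph2, Slc6a4, Fev and Gchfr summed to between 784 and 1075 CPM (allele-assigned counts scaled to a common library total) in F1i and between 777 and 1288 in F1r, and none was at 0. Markers of cerebellum summed to at most 1.57 CPM in F1i and 1.74 in F1r, and markers of forebrain to at most 3.15 and 3.25. F1i 4 stood apart in choroid plexus and ependymal markers, with the F1i maximum of 236 CPM against an F1i median of 79.5. No pair of libraries agreed within sampling noise: the closest, F1r 5 and F1r 6, had a mean chi-square of 1.90 per gene.

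At P15 the median dispersion of the autosomal genes was 1.04, with quartiles of 0.77 and 1.37. In simulated counts, genes with binomial sampling alone had a median of 0.94. At P15 9.37% of the genes had an unadjusted chi-square p below 0.05, so spread beyond sampling may not be confined to the called genes. A one-sided chi-square test with Benjamini-Hochberg adjustment over the 9724 genes called 106 genes overdispersed at an adjusted p below 0.05, which is 1.09% of those tested. The called genes had dispersions from 2.89 to 223 with a median of 4.52, and 16 of them exceeded 10. Expressed as the SD of the CAST share between animals beyond sampling, the spread of the called genes had a median of 2.89 percentage points and a highest value of 8.90 points. The called genes were also more deeply sequenced, with a median of 1040 reads per animal against 246 for genes not called, and the depth of a gene limits the spread that can be detected in it. Of the called genes, 105 were protein-coding and 1 was a long intergenic RNA, beside 9555 and 34 of the 9724 tested genes. Genes of the X chromosome, measured the same way, had a median dispersion of 2.33, and 61.4% of 334 were called.

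**Figure D1:**
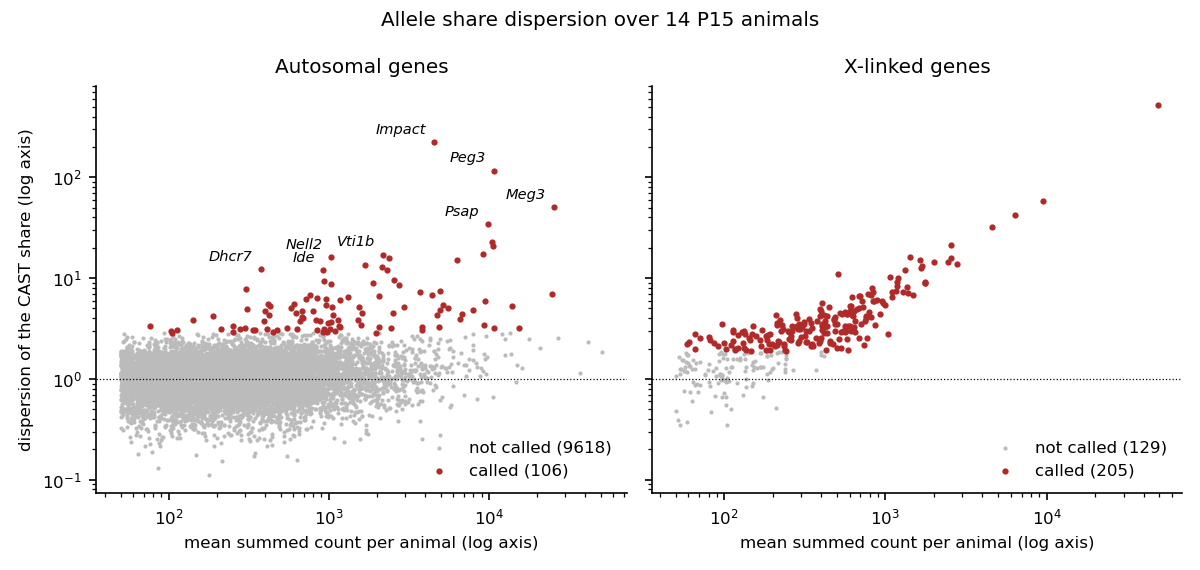
Dispersion of the CAST share over 14 P15 animals (y axis, log) against the mean summed count per animal (x axis, log), for autosomal genes (left) and X-linked genes (right). Each point is a gene, red where it was called, and the dotted line marks 1, the average under binomial sampling. The 106 called autosomal genes lie above a cloud centred on a median of 1.04, whereas 205 of 334 X-linked genes were called.

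The called genes spread over all 19 autosomes, at between 0.28% and 2.06% of the genes tested on each. With called and imprinted genes left out, the mean residual of a whole chromosome in an animal stayed between -0.14 and 0.14, where the residual is the deviation in units of its binomial SD. No animal showed a whole chromosome displaced toward 1 allele beyond this. Across the genome, neighbouring tested genes had a median correlation of residuals over the 14 animals of 0.00, and 0.48% of 9705 neighbour pairs reached 0.7. Of the 208 neighbour pairs that held a called gene, 8 (3.85%) reached it. By what moved, many of the called genes fell into imprinted genes, a few loci that varied at every age, and a large set that moved along 1 axis shared by the animals. Others, such as Cpe, Tubb2a and Psd2, belonged to none of these groups.

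Imprinted genes held the highest dispersions. Of 17 tested genes on a list of maternally expressed genes 2 were called (Meg3 and Dhcr7), and of 19 on a list of paternally expressed genes 4 were called (Impact, Peg3, Usp29 and Rasgrf1), against 1.09% of all genes. The median dispersion of these lists was 1.31 and 1.48, beside 1.04 for all autosomal genes. What varied in Impact, Peg3, Usp29, Meg3 and Rasgrf1 was the small share of reads from the allele that is mostly silent. Such shares have a small binomial variance, so a small spread in points gives a high dispersion. The extra spread was 0.26 points in Rasgrf1, the lowest of the called genes, 0.36 in Meg3, 0.84 in Usp29 and 0.85 in Peg3. In Impact it was 3.81 points, beside a median of 2.89 for the called genes.

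Impact encodes a regulator of translation that acts through the kinase GCN2 and is expressed from the paternal copy in mice. Its CAST share in F1i animals had a lowest value of 0.32%, a median of 0.54% and a highest value of 11.3%, while in F1r animals it ran from 90.3% through a median of 96.7% to 98.5%. The 11.3% belonged to F1i 2, with 3829 reads, and the next F1i animal, F1i 4, had 1.68%. Among the F1r animals F1r 4 lay lowest, at 90.3% of 4283 reads. The dispersion of 223 was 1.23 at P5 and 34.5 in adults, and the excess over P5 passed an F test of the ratio of the chi-square dispersions across 9367 genes (adjusted p = 2.239e-07). Without F1i 2 the dispersion was 55.7, and without any other single animal it stayed at 210.2 or above.

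Peg3, a zinc finger protein known for its imprinted role in growth and maternal behaviour, had CAST shares of 0.12% to 0.53% in F1i animals with a median of 0.23%. In F1r animals the shares ran from 95.6% to 99.8% with a median of 99.5%, and the low value belonged to F1r 3. Usp29, its neighbour on chromosome 7 that starts from the same imprinted region, ran from 0.14% to 0.91% in F1i with a median of 0.61%, and from 95.3% to 99.7% in F1r with a median of 99.1%. The low Usp29 value was again that of F1r 3, and the residuals of the neighbours correlated at 0.87 over the 14 animals. Without F1r 3, Usp29 was no longer called (chi-square adjusted p = 0.758, dispersion 5.54 with all animals), and the dispersion of Peg3 was 10.8, against 116 with all animals (adjusted p = 2.165e-17 without F1r 3). Peg3 was also overdispersed at P5 (16.9) and among adults (123), on an extra spread of 0.29 and 0.42 points, beside 0.85 at P15.

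Meg3, a long noncoding RNA of the maternal copy, gave 98.3% to 99.7% CAST in F1i animals with a median of 99.3%, and 0.21% to 0.75% in F1r animals with a median of 0.25%. F1i 7 was the lowest of its cross and F1r 6 the highest of the other. At P5 its dispersion was 16.1, at P15 50.2 and among adults 56.5, on an extra spread of 0.17, 0.36 and 0.32 points. Without F1i 7 the P15 dispersion was 28.9. Meg3 averaged 25422 reads per animal. Rasgrf1, an exchange factor for Ras, had a dispersion of 3.21 with shares of 0.23% to 1.41% in F1i and 99.02% to 99.4% in F1r. Its call rested on F1i 1, without which the dispersion was 0.86 (chi-square adjusted p = 0.893). Dhcr7 is listed as maternally expressed, yet its shares of 55.2% to 77.9% in F1i and 59.9% to 77.3% in F1r came from both alleles, and it is described with the axis genes.

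Of the 106 genes called at P15, 5 were called at P5, 19 in adults and 5 at all 3 ages. As shares of each list, the P5 overlap was 4.72% of the P15 genes and 31.2% of the 16 genes called at P5 (0.160% of 9980 tested), and the adult overlap was 17.9% of the P15 genes and 12.8% of the 148 genes called in adults (1.37% of 10785). With the libraries of each other age thinned to equal depth, the adult overlap was 9 genes, and with 1 mean for each first label number it was 15. Genes called at all 3 ages were Peg3, Meg3, Vti1b, Rdh11 and Ide. The last 3 are not on the imprinted lists, and the P15 shares of the 2 crosses overlapped for each of them.

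Vti1b encodes a SNARE protein of late endosomal membrane fusion. Rdh11, a retinol dehydrogenase, is the next tested gene on chromosome 12, and Zfyve26, which encodes spastizin, a protein of lysosome reformation, is the one after it. All 3 lie on the minus strand. Vti1b had CAST shares of 51.5% to 61.7% in F1i with a median of 56.1%, and of 52.2% to 63.5% in F1r with a median of 59.9%. F1r 2, F1r 4, F1i 1 and F1i 5 lay above 60%, and F1i 3, F1i 7 and F1r 1 lay lowest. Rdh11 ran from 48.4% to 63.6% in F1i with a median of 56.6% and from 51.2% to 62.3% in F1r with a median of 54.5%, and F1i 1, F1i 5 and F1r 2 were again its highest animals.

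Over the 14 P15 animals the residuals of Vti1b correlated at 0.91 with those of Rdh11 and at 0.89 with those of Zfyve26. At P5 those correlations were 0.86 and 0.72, and in adults they were 0.94 and 0.93. The animals differ between ages, so these are separate sets of mice. The correlations are descriptions over points that share libraries. The tested genes on either side behaved otherwise: Pigh, before Vti1b, had a dispersion of 1.31 and a correlation with Vti1b of 0.20, and Zfp36l1, after Zfyve26, had 0.41 and -0.09. In order of age the dispersion of Vti1b was 9.70 (P5), 17.0 (P15) and 39.7 (adults), that of Rdh11 was 6.55, 5.28 and 5.004, and that of Zfyve26 was 2.02, 2.79 and 6.03. For a given spread in points the dispersion rises with depth, and Vti1b averaged 1694.5, 2188 and 4648 reads at these ages. Its extra spread was 3.55, 4.25 and 4.56 points. That of Rdh11 was 4.86, 4.96 and 3.98 points, and that of Zfyve26 was 2.57, 4.15 and 5.21 points. Zfyve26 was named after its values were seen. It was called in adults (chi-square adjusted p = 1.296e-10) and not at P15 (adjusted p = 0.0671), where it averaged 259 reads.

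In these 3 genes the CAST allele carried the wider spread at every age. The within-cross SD of log2 CPM of Vti1b was 0.31 for the CAST allele and 0.12 for the C57 allele at P15, 0.19 and 0.06 at P5, and 0.24 and 0.10 in adults. Rdh11 at P15 had 0.33 for CAST and 0.17 for C57, and Zfyve26 had 0.27 and 0.14. Of the 18 adult libraries, 13 had a Vti1b share between 50.8% and 54.03%, and the other 5 lay between 56.7% and 63.1%. Those 5 were all 3 libraries under first number 5 (F1r) and 2 of the 3 under first number 2 (F1i). With 1 mean for each first number the adult dispersion of Vti1b was 9.37, and the adult calls of Rdh11 (1.70, chi-square adjusted p = 0.444) and Zfyve26 (1.82, adjusted p = 0.403) were lost. Of the 50-base words in Vti1b transcripts, 13.8% also occur in another gene, so some of its reads could have come from a copy.

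The promoters of the 3 neighbours are shown because their allele ratios moved together. The sequences are from RefSeq on GRCm38.p6, 250 bases before to 50 bases after the start, on the minus strand and printed 5′ to 3′, with CG dinucleotides in capitals. They lie at chr12:79172409-79172708 (Vti1b), chr12:79191806-79192105 (Rdh11, the farther upstream of its starts) and chr12:79296233-79296532 (Zfyve26).
Vti1b: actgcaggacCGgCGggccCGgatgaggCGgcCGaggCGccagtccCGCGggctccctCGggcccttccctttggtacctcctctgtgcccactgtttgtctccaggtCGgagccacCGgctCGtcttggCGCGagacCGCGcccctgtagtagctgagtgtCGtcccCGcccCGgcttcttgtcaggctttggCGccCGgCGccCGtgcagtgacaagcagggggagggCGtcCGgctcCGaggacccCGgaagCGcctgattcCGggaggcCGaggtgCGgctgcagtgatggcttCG
Rdh11: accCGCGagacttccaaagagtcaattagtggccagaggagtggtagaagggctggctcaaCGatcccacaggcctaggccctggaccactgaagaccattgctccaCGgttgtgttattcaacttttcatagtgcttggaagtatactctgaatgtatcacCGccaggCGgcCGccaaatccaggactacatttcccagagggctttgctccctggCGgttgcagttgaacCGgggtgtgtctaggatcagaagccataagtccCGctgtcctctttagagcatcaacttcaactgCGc
Zfyve26: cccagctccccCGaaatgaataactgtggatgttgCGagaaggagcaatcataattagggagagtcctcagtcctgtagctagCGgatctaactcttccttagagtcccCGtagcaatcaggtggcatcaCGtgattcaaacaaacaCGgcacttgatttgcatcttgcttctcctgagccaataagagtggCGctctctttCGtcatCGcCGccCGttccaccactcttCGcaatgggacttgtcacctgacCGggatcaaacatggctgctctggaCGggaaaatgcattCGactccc
CG reads the same on both strands. Vti1b's window holds 32 CG, a number that 9.61% of 32544 such promoters reach. The windows of Rdh11 and Zfyve26 hold 11 and 15, which 41.7% and 34.9% of promoters reach. The deposited tables hold no base-level data, so whether any of these bases differs between C57 and CAST was not examined.

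Ide encodes insulin-degrading enzyme, a metalloprotease that also cleaves amyloid beta. Its gene on chromosome 19 lies in a segment known to vary in copy number between C57BL/6J mice. The CAST share was 33.7% to 46.7% in F1i with a median of 36.6%, and 32.3% to 49.1% in F1r with a median of 36.2%. F1r 2, F1r 3 and F1i 5 lay highest, and F1r 6 and F1i 2 lowest, so the crosses overlapped. In order of age the dispersion was 11.1 (P5), 11.99 (P15) and 7.13 (adults), on an extra spread of 4.51, 5.34 and 3.84 points. Here the C57 allele carried the wider spread: its within-cross SD on the log2 scale was 0.44 against 0.22 for the CAST allele at P15, 0.31 against 0.07 at P5, and 0.19 against 0.13 in adults. C57 counts of Ide ran from 63.9 to 155 CPM at P15, and CAST counts from 48.0 to 78.0 CPM. The neighbours Cpeb3 and Exoc6 had dispersions of 0.75 and 1.05, and residuals of Ide correlated at 0.33 with those of Vti1b. Genomic DNA was not measured, so the part of copy number in this spread was not tested.

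**Figure D2:**
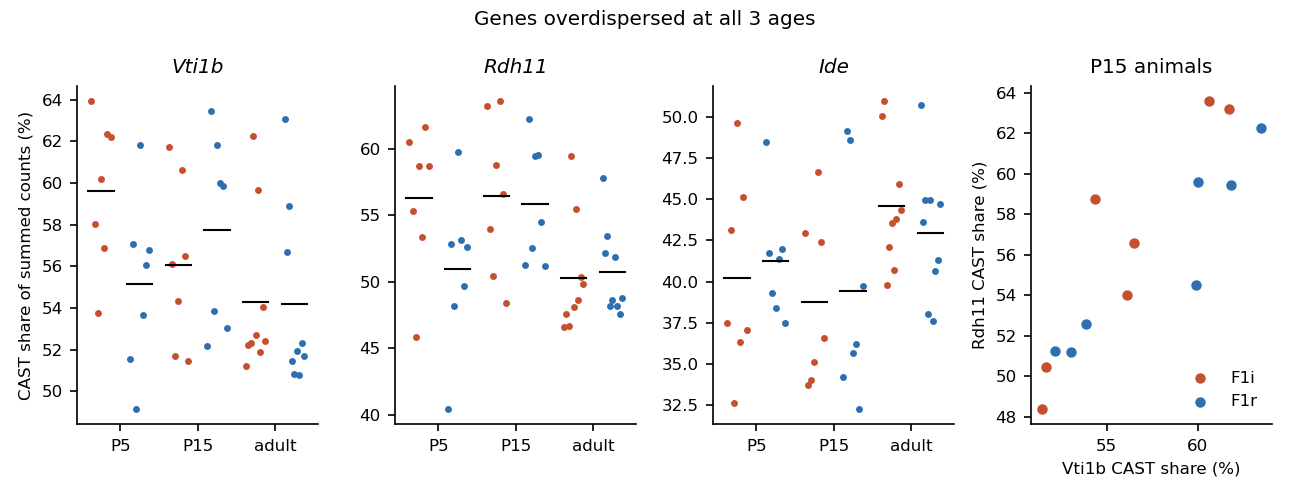
CAST share (y axis, percent of summed counts) of Vti1b, Rdh11 and Ide at P5, P15 and in adults, with F1i in red left of F1r in blue and bars at the group means, and the P15 shares of Rdh11 against those of Vti1b. Each point is an animal at P5 and P15 and a library in adults. In all 3 genes the animals of 1 cross cover ranges of 10 points or more at P15, and Rdh11 and Vti1b are high in the same animals.

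Most of the called genes deviated together in the same animals. The first principal component of the residuals of the 106 genes, each gene scaled to the same mean square, held 52.9% of their variance and the second held 8.23%, where 8.33% would be an equal share of the 12 free dimensions. Over the 9618 genes not called the first component held 10.2%. On this allele axis F1i 1 (0.46), F1i 2 (0.45) and F1r 1 (0.32) lay at 1 end. F1r 5 (-0.33), F1r 6 (-0.32) and F1i 6 (-0.30) lay at the other, and the remaining animals lay between, so both crosses were found at each end.

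The order of the animals on the allele axis was nearly that of the first axis of total expression. That expression axis, the first principal component of log2 CPM of the summed alleles within crosses, held 55.7% of the variance of the 9724 genes. The scores correlated at 0.99 over the 14 animals (Spearman 0.96), and at 0.98 without F1i 1 and F1i 2. With the library total the allele axis correlated at -0.01. Of the 106 called genes, 64 had a correlation of 0.7 or more in size between residual and expression axis, 30 of them with the CAST share higher toward F1i 1 and 34 with it lower. Among genes not called 1.67% reached this. The sign was the same within F1i and within F1r for 98 of the 106 genes, and for 52.4% of the genes not called. The called genes were chosen on the same counts, so these shares describe them and are not a test.

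**Figure D3:**
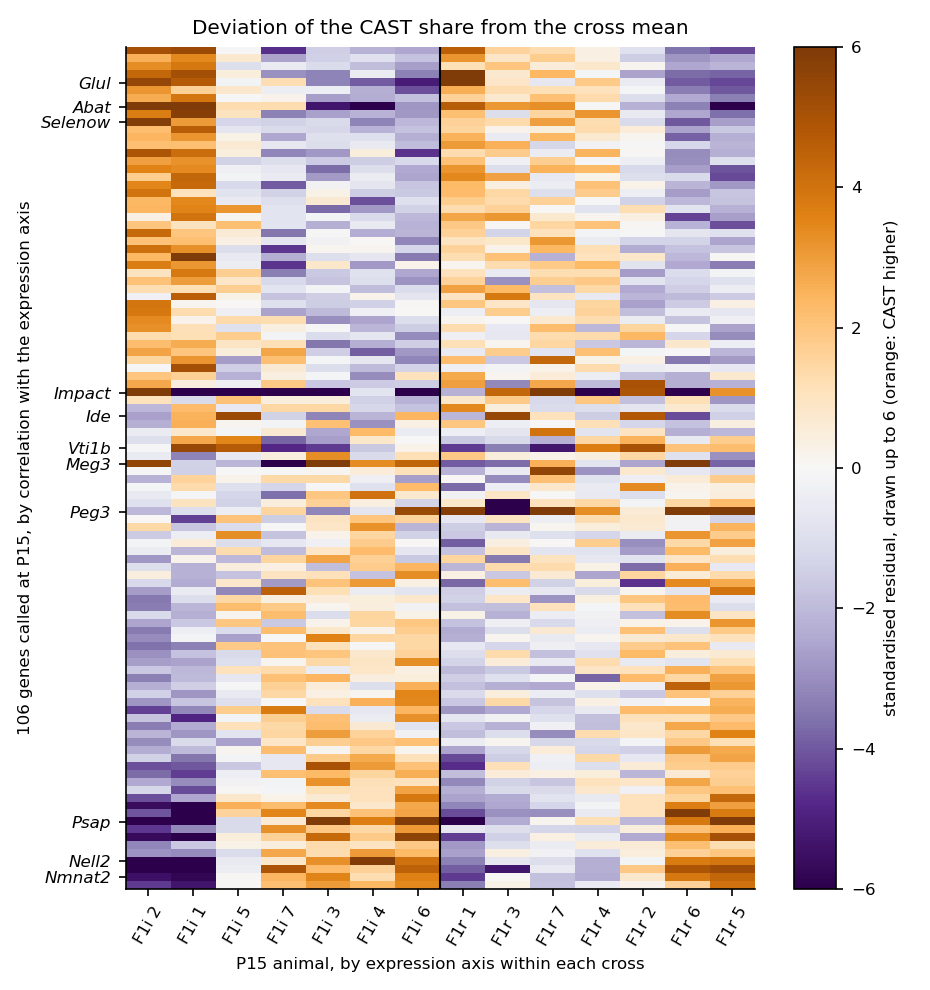
Standardised residuals of the CAST share of the 106 called genes (rows, ordered by correlation with the expression axis) in the 14 P15 animals (columns, ordered by expression axis within F1i on the left and F1r on the right). Orange means a higher CAST share than the cross mean and purple a lower one. F1i 2, F1i 1 and F1r 1 show 1 sign in the upper rows and the other in the lower rows, and F1i 6, F1r 6 and F1r 5 show the reverse.

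Genes with a lower CAST share toward F1i 1 were led by Psap, the precursor of the saposins that activate lysosomal sphingolipid breakdown. Psap had shares of 50.3% to 58.7% in F1i with a median of 54.9%, and of 51.5% to 59.8% in F1r with a median of 56.0%. F1i 1, F1i 2 and F1r 1, at 50.3%, 50.5% and 51.5%, were lowest, and F1r 5 was highest. At P5 the 14 animals lay between 51.5% and 52.8%, and the 18 adult libraries between 50.5% and 52.2%. The dispersion was 34.4 at P15 on 9881 reads per animal, 0.86 at P5 and 1.61 in adults, and the excess of P15 passed the F test of chi-square ratios against both (adjusted p = 5.526e-04 and 0.00135).

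Nell2, a secreted neuronal glycoprotein, behaved alike with a wider spread. Its shares were 55.7% to 74.9% in F1i with a median of 66.2%, and 58.8% to 70.5% in F1r with a median of 63.3%. The 2 lowest F1i animals were F1i 1 and F1i 2, and the lowest F1r animal was F1r 1. No P5 animal exceeded 54.7% and no adult library exceeded 55.4%. Dhcr7, the last enzyme of cholesterol synthesis, ran from 55.2% to 77.9% in F1i with a median of 74.7% and from 59.9% to 77.3% in F1r with a median of 67.4%. F1i 1, F1i 2 and F1r 1 again had the lowest shares of their crosses, and the other ages stayed between 47.5% and 57.2%. Its extra spread of 8.06 points was, after the 8.90 points of Ube2g2, a ubiquitin-conjugating enzyme with 76.8 reads per animal, the widest among the named genes.

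The same direction was seen in Reep5, an endoplasmic reticulum shaping protein (dispersion 21.03, 52.4% to 58.0% in F1i and 53.5% to 58.7% in F1r). Uqcrc1, a core subunit of respiratory complex III, ran from 53.9% to 63.9% in F1i and from 55.2% to 66.5% in F1r. Nmnat2, the axonal enzyme that makes NAD, had a dispersion of 13.4 and a correlation with the expression axis of -0.95. Other genes of this direction were Upf3a, a factor of nonsense-mediated decay, Syt17, a synaptotagmin, Rpl28, a ribosomal protein, Hsp90ab1, a chaperone, and Sst, the neuropeptide somatostatin, with dispersions of 3.73 to 5.05.

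Abat, the GABA transaminase, led the opposite direction. Its CAST shares were 39.7% to 47.0% in F1i with a median of 44.2%, and 40.4% to 46.2% in F1r with a median of 43.6%. F1i 1, F1i 2 and F1r 1 were the highest of their crosses here, and F1i 4 and F1r 5 the lowest. The P5 animals lay between 45.6% and 47.3% and the adults between 45.7% and 47.0%, and the dispersion of 22.98 exceeded 0.52 at P5 and 1.33 in adults by the F test of chi-square ratios (adjusted p = 4.671e-04 and 0.00251). Glul, the astrocytic glutamine synthetase, ran from 42.2% to 49.1% in F1i and from 42.5% to 49.3% in F1r, with a dispersion of 15.1 at P15 and 3.99 in adults. Selenow, a small selenoprotein, ran from 29.5% to 38.1% and from 29.1% to 34.9%. Gm10382, a predicted gene, ran from 13.4% to 32.8% and from 12.5% to 30.4%, but 38.6% of its 50-base words also occur elsewhere.

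**Figure D4:**
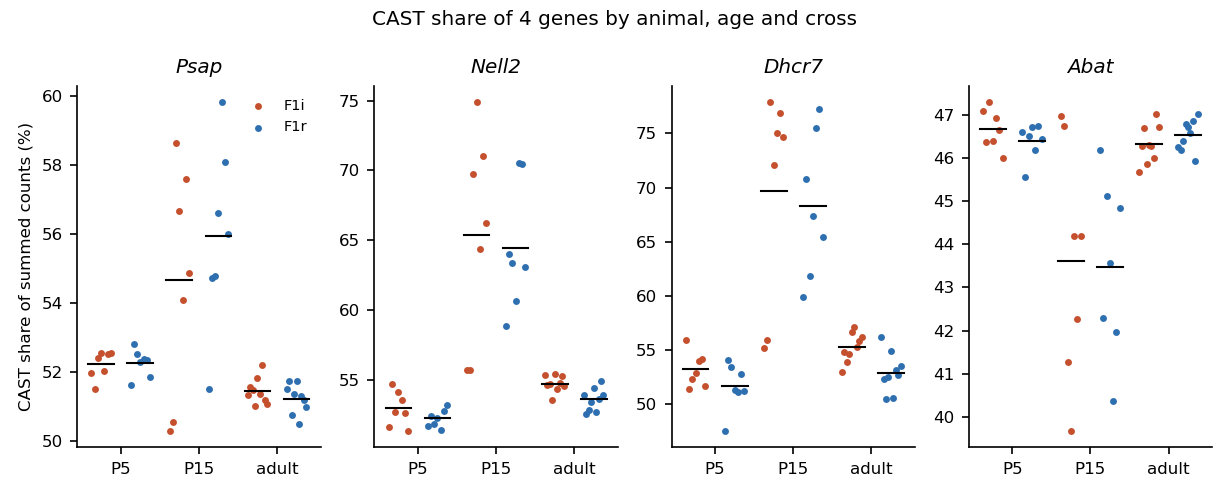
CAST share (y axis, percent of summed counts) of Psap, Nell2, Dhcr7 and Abat at P5, P15 and in adults, with F1i in red left of F1r in blue and bars at the group means. Each point is an animal at P5 and P15 and a library in adults. At P15 the animals of each cross spread over 5 points or more, toward higher shares for Psap, Nell2 and Dhcr7 and lower shares for Abat, and the P15 animals closest to the other ages are F1i 1, F1i 2 and F1r 1.

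In the 64 genes that followed the expression axis, the animals at 1 end had allele ratios closer to those of other ages. For these 64 genes, the distance of an animal's share from the mean of the P5 and adult shares of its cross had a median of 1.65 points in F1i 1, 1.46 in F1i 2 and 2.12 in F1r 1. In the other 11 animals it ran from 3.58 points in F1r 7 to 8.80 points in F1r 5. For 3153 genes that were not called and averaged 400 reads or more, the distance was 1.30 to 1.76 points in all 14 animals. Shares of the 64 genes were also farther from 50% at P15: the median distance from 50% was 2.18 to 3.21 points over P5 animals, 2.89 to 9.43 points over P15 animals and 1.94 to 2.80 points over adults. F1r 1, F1i 1 and F1i 2 had the lowest P15 values, at 2.89, 2.95 and 2.98 points. The 64 genes were chosen for their spread along the axis at P15, and the 3153 for not being called. The widths of these ranges thus follow in part from the choice and are not a test. Which end of the axis lay nearer the other ages was not part of the choice.

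**Figure D5:**
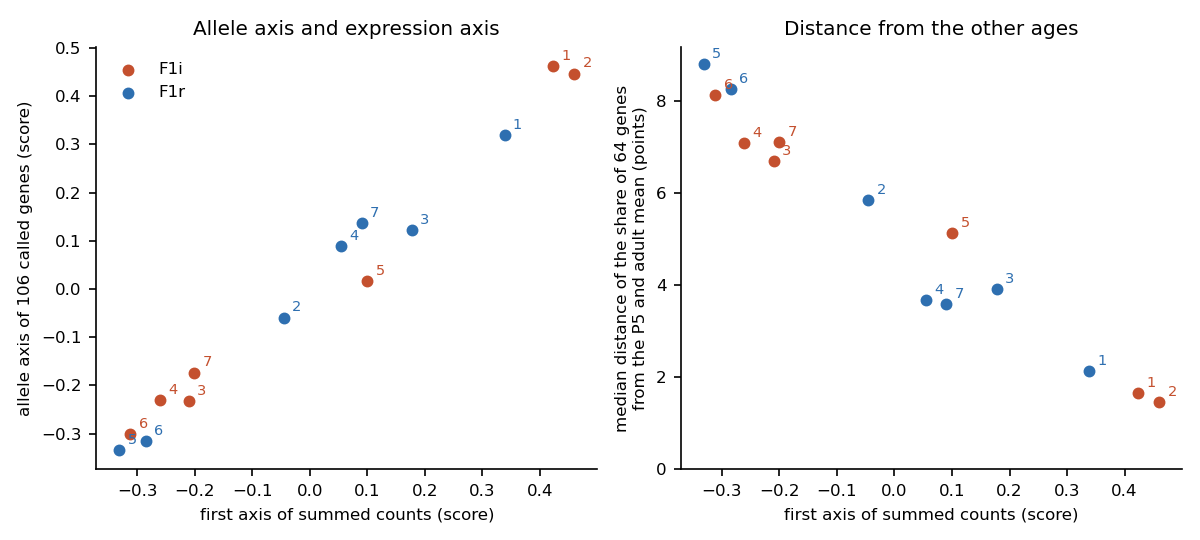
Left, score of each P15 animal on the allele axis of the 106 called genes (y axis) against its score on the first axis of summed counts (x axis). Right, median distance in percentage points of the CAST shares of 64 genes from the P5 and adult mean (y axis) against the same expression score. Points are animals, numbered within F1i (red) and F1r (blue). The 64 genes were chosen for following this expression axis at P15. The scores rise together (r = 0.99), and the distance falls from 8.80 points in F1r 5 to 1.46 points in F1i 2.

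The first component of these genes was also computed at the other ages. In the residuals of the same 106 genes, which were chosen for their spread at P15, the first component held 12.5% at P5 and 13.5% in adults. When each age's own called genes were used instead, the share was 44.1% for the 16 P5 genes, 52.9% for the 106 P15 genes and 20.8% for the 148 adult genes. The expression axis of adults held 50.7% of the expression variance, close to the 55.7% at P15, whereas that of P5 held 13.3%. The 64 genes had a median correlation in size with the expression axis of their age of 0.19 (P5), 0.85 (P15) and 0.28 (adults), beside 0.21, 0.23 and 0.19 for genes not called at P15. In adults the sign matched that at P15 for 40 of the 64 genes in the better of the 2 orientations. The F test across genes found a higher dispersion at P15 than at P5 for 9 of 9367 genes (0.0961%), 8 of them among the 106, and found 0 lower by this test, where 364 and 198 genes passed an unadjusted p of 0.05. Against adults 7 of 9692 genes were higher at P15 (0.0722%), all among the 106, and 2 were lower, while 258 and 303 genes passed an unadjusted p of 0.05. The gene outside the 106 that was higher than at P5 was Tulp4 (1.53 at P15 and 0.07 at P5), and the lower ones were Gpr153 (0.47 at P15 and 14.6 in adults) and Zhx3 (0.66 and 9.59), all named after their values were seen. Psap, Abat, Uqcrc1 and Reep1, an endoplasmic reticulum protein of motor axons, were higher against both ages.

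Several library measures moved with the axis. Per animal, the slope of log2 expression on the GC content of transcripts ran from -0.18 per 10 percentage points of GC in F1i 4 to 0.24 in F1i 2, and its correlation with the allele axis over the 14 animals was 0.93. Among markers of cranial motor neurons, Slc5a7, the choline transporter, ran from 171 to 320.5 CPM in F1i and from 182 to 291 CPM in F1r, and Chat, choline acetyltransferase, from 16.8 to 27.1 CPM in F1i and from 17.7 to 25.4 CPM in F1r. Their levels correlated with the expression axis at -0.86 (Slc5a7) and -0.68 (Chat). Of the myelin markers, Mbp ran from 5605 to 10099 CPM in F1i and from 7101 to 9717 CPM in F1r, with a correlation of -0.51, and Mobp from 2084 to 3948 CPM in F1i and from 2764 to 3585 CPM in F1r, with a correlation of -0.47. The sum of the 4 serotonergic markers correlated at 0.35, but singly they ran from 0.81 for Fev and 0.75 for Slc6a4 to 0.05 for Tph2 and -0.35 for Gchfr. Fev, the transcription factor of serotonergic identity, had 16.03 to 63.9 CPM in F1i and 25.3 to 55.7 CPM in F1r. The sum of the astrocyte markers correlated at -0.39, with Gfap at 0.66 and Gja1 at -0.71. Among genes not called, 47.2% had summed counts correlating with the expression axis at 0.7 or more in size, with a median of 0.67. Marker correlations of this size therefore do not single out a cell type. In bulk tissue fewer cells of a type and less RNA per cell cannot be told apart. The part of GC content, RNA quality or dissection in the allele axis was not tested.

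The total expression of the axis genes followed the expression axis about as closely as that of other genes. Their summed counts had a median correlation in size with the expression axis of 0.74, beside 0.67 for genes not called. The GC content of their transcripts had medians of 50.9% for the genes with the CAST share higher toward F1i 1 and 51.6% for those with it lower, beside 49.5% for genes not called. The 2 sets differed in their mean CAST share, at medians of 43.6% and 55.1%. Over the called genes the CAST allele had the larger within-cross spread in 54 of 106 (50.9%), beside 49.1% of the genes not called. Dispersions were computed from allele counts that the authors had summed over each gene, so which part of a transcript carried a deviation was not examined.

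When the expression axis was added to the model, chosen after the data were seen, 17 genes were called, all among the 106. They were Impact, Peg3, Meg3, Vti1b, Ide, Cpe, Tubb2a, Rdh11, Psap, Abat, Enpp5, Usp29, Psd2, Ube2g2, Pkm, Fam184a and Ctr9, named here because they remained and not by a rule. Vti1b and Ide kept dispersions of 18.4 and 11.9, while Psap fell to 5.51 and Nell2 to 1.99 (chi-square adjusted p = 0.597). Without F1i 1, F1i 2 and F1r 1 there were 53 called genes, 50 of them among the 106. Psap (15.3), Abat (15.7) and Nell2 (7.55) remained called in the other 11 animals, so the spread of these genes does not rest on the animals left out alone. Other axis genes, among them Hsp90ab1 (2.54, chi-square adjusted p = 0.356), Syt17, Rpl28 and Sst, were no longer called.

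Of 21 lists of cell type and pathway genes, 11 held no called gene, beside 1.09% of all genes called. None of 12 serotonergic genes was called, nor any of 8 immediate early, 10 choroid plexus and ependymal, 10 endothelial and mural, 9 oligodendrocyte precursor, 4 cerebellar, 2 catecholamine, 2 blood, 14 protocadherin, 4 histocompatibility or 7 early activation and stress genes. Besides the imprinted lists, those with calls were myelin (2 of 14, Cldn11 and Cnp), astrocyte (1 of 14, Glul), microglia (1 of 11, C1qa), neuropeptide (1 of 13, Sst), glycolysis (1 of 13, Pkm), oxidative phosphorylation (1 of 63, Uqcrc1), cytosolic ribosomal (2 of 35, Rpl28 and Rps15) and cytoskeleton and housekeeping (2 of 10, Tubb2a and Hsp90ab1). Median dispersions ran from 0.87 for oligodendrocyte precursor genes to 2.12 for cytoskeleton and housekeeping genes. Of these, Cldn11, Cnp, C1qa, Sst, Pkm and Rpl28 were not called with thinned counts. Leaving out 1 animal ended the call of C1qa (F1i 2, F1r 1 or F1r 2), Cnp (F1i 4 or F1i 7), Cldn11 (F1r 1 or F1r 3), Rps15 (F1r 1 or F1r 2) and Pkm (F1r 2), with dispersions down to 1.80 for C1qa, 1.81 for Cnp and 2.22 for Rps15. Rpl28, Rps15, Pkm, Tubb2a and Ccdc24 share between 25.8% and 56.3% of their 50-base words with other genes, so their ratios are uncertain.

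The 20 called genes with the lowest dispersions had a median of 553 reads per animal, more than the median of 246 for genes not called. Of these 20, 4 had fewer reads than that median of genes not called. Acacb, an acetyl-CoA carboxylase, ran from 44.3% to 65.6% in F1i and from 36.7% to 63.6% in F1r on 103 reads per animal, and Cetn3, a centriole protein, from 24.7% to 46.6% and from 8.82% to 39.1% on 105 reads. Cetn3 lay at the threshold (chi-square adjusted p = 0.0492) and was also called in adults. The 5 called genes most like Impact in residual over the 14 animals were Cend1, Rhbdd2, Selenow, Snx30 and Gbf1, with correlations of 0.63 to 0.50. Without F1i 2 those correlations were -0.11 to 0.39.

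The crosses were compared in how far their animals deviated. The mean squared residual over all tested genes was 1.04 ± 0.12 in F1i and 0.99 ± 0.06 in F1r (SD, n = 7 each), a difference of 0.04 that an exact two-sided permutation test placed at p = 0.452. Among the 106 genes, the dispersion within a cross had a median of 5.21 in F1i and 3.74 in F1r. It was larger in F1i for 70 of them, beside 4870 of the 9618 genes not called. From the F1i animals alone 82 genes were called, and from the F1r animals alone 50. Among the 106 genes F1i 1 held the largest residual of 28 and F1i 2 of 19, and the other 12 animals of 1 to 8 each. Deviation and library total showed no relation that passed the permutation test over the 14 animals: Pearson's r was -0.43 (permutation p = 0.121, adjusted 0.243) and Spearman's rho -0.36 (p = 0.201, adjusted 0.398). Without F1i 7 and F1r 7, the farthest from the median total, r was -0.18. With thinned counts r was -0.33 (p = 0.253) and rho -0.24 (p = 0.398), and both are adjusted over 2 relations.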

How the data were processed

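Per the labels, total RNA of the dorsal raphe nucleus was prepared with an RNeasy kit, libraries were made with TruSeq, and 50 bp single-end reads were sequenced. Per the submitters' processing notes, Novoalign and the mm9 build were used. The deposited values are raw read counts for each allele, which the authors summed over each gene. How reads were assigned to an allele, the strand and the handling of multiple matches are not given in the sources used here. Symbols, chromosomes and gene order came from GENCODE M21 by Ensembl identifier, without coordinates, because that build is later than mm9. Of 15499 genes, 14969 were matched.

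Dispersions, chi-square tests and Benjamini-Hochberg adjustment were computed in Python 3.11.15 with numpy 2.4.6 and scipy 1.17.1 on the counts as deposited. A binomial model with 1 mean per cross was used in place of a model with replicate-level spread because that spread is what was measured. The extra spread is a moment estimate. The F test of P15 against another age, added after the data were seen, takes the ratio of 2 dispersions and treats each as a scaled chi-square value. Log2 values used a pseudocount of 0.5 for summed counts and 1 for allele counts. Tested on simulated data for the P15 comparison over 9724 genes, 88.5% of 61 genes with 200 or more reads and a set SD of 5 points were called, 100% of 57 with 10 points, and 7 of 9524 unchanged genes. Named genes were the 12 called genes of highest dispersion and the 10 of largest extra spread with 5 or more reads of the smaller allele in a cross, those called at all 3 ages, up to 3 per list, the 3 on each side of the count limit, and the 5 most like the gene of highest dispersion. Members, lists and tests were chosen with earlier results of these data known. Alternatives covered the count minimum, thinning to 3692778 reads, the deviance, 1 mean for all animals, allele totals, smaller-allele counts, copies, the replicate number and leaving out animals. The 530 genes without annotation and the 530 X-linked genes were not among the autosomal genes. Some genes that these rules name, and marker sums that include them, are not reported here; single marker genes, added after the data were seen, are given in place of those sums.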

Additional observations from a re-analysis of the deposited data

Results flagged for a closer look

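With 7 animals in a group, an animal was listed when its gap to the nearest other exceeded Dixon's 95% value. This was applied to 82 groups of values, where chance gives about 4.1, and it listed 7. F1r 7 had the highest library total of its cross, 8032987 reads. F1i 2 had a mean squared residual of 27.8 over the called genes, and F1r 3 one of 14.1. Without genes of the imprinted lists these values were 9.94 and 3.003. The CAST share of Impact in F1i 2 was 11.3%, that of Peg3 in F1r 3 was 95.6% and that of Usp29 in F1r 3 was 95.3%. C1qa, a complement gene of microglia, had a CAST share of 56.8% in F1i 2, the highest of its cross.

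The spread of allele ratios between animals differed between ages by the F test. The dispersion was higher at P15 than at P5 for 9 genes and higher at P15 than in adults for 7 genes, and it was lower at P15 than in adults for 2 genes, Gpr153 and Zhx3. At an unadjusted p of 0.05, 364 genes were higher and 198 lower than at P5, and 258 were higher and 303 lower than in adults.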

How the results depend on the processing

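The count of 106 overdispersed genes was 68 with counts thinned to the smallest total, which removes reads and with them power, and 164 with 1 mean for all 14 animals. It was 53 without F1i 1, F1i 2 and F1r 1, 17 with the expression axis as a covariate, 82 with F1i animals alone and 50 with F1r animals alone, all added after the data were seen. It ranged from 87 to 110 when each animal was left out in turn, while the median dispersion of 1.04 ranged from 1.02 to 1.04. Of the 106 genes, 56 were called in every set of 13 animals. Count minimums of 20 and 100, the deviance, allele totals, smaller-allele counts, left-out copies and division by the median gave 98 to 110 calls. The 205 called X-linked genes were 156 with thinned counts, and the difference between crosses in deviation stayed short of the threshold with thinned counts, called genes alone and without imprinted genes (exact permutation p of 0.785, 0.592 and 0.339). The adult overlap of 19 genes was 9 with thinned counts. The numbers shared by F1i and F1r animals are not stated to mark a litter or batch. Residuals of same-numbered animals correlated at -0.01 to 0.13 over the autosomal genes. Most tested genes were not called, so these values cannot tell whether the numbers pair the samples. Over the called genes the correlations for numbers 1 to 7 were 0.67, -0.24, -0.21, -0.20, -0.16, 0.54 and -0.12. A fit with the replicate number as a block called 54 genes. Of 37 named genes, 14 were not called with thinned counts, 14 without F1i 1, F1i 2 and F1r 1, and 25 with the expression axis. What changed these calls was not tested.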
